A study of Mus musculus with 18 samples.

Results

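The PIWI proteins and the factors that make their small RNAs were followed as 10 genes on one-colour Agilent mouse arrays: Piwil1, Piwil2, Piwil4, Mael, Mov10l1, Asz1, Gpat2, Fkbp6, Gtsf1 and Pld6. They were found by gene symbol, older synonym or transcript accession among 41174 probes, on which they had 14 probes, and all 10 were among the 18935 genes tested. Gpat2, Gtsf1 and Pld6 were listed on the array under older names. Every array of the study was used, 18 in all, with 2 in each of 9 groups. All samples were labelled male and of a mixed C57BL/6 129SV background.

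From the animal came germ cells positive for green fluorescent protein (GFP) driven by the Dazl reporter, sorted from testes at 7 to 11 days after birth (juvenile testis) and from embryonic gonads at E13.5. In culture, GFP+ cells were sorted from Dazl-GFP embryonic stem (ES) cell cultures after 16 and 12 days of differentiation and from Stella-GFP cultures after 7 days; the labels call these in vitro primordial germ cells. Undifferentiated ES cells of both lines, grown with Lif on feeder fibroblasts, were sorted into GFP+ and GFP- cells. The Stella line carries a bacterial artificial chromosome reporter for Dppa3, and how the Dazl reporter was built is not given in the sources used here. Dazl and Stella are expressed in several germline stages, so each gate defines cells by reporter activity and not by stage.

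PIWI-interacting RNAs (piRNAs) are small RNAs of the germ line that guide PIWI proteins to transposon transcripts and, in the fetal testis, direct DNA methylation to transposon copies. Their long precursors are unwound, cut and trimmed at the mitochondrial surface and in nearby cytoplasmic granules called nuage, where helicases, nucleases, scaffold proteins and chaperones load them onto PIWI proteins. In the mouse, Piwil2 and Piwil4 act in fetal male germ cells, and Piwil1 is best known from meiotic and postmeiotic cells of the testis.

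The promoters are shown because 9 of the 10 genes were called higher after 12 days of culture. No link between their sequence and that rise was tested. RefSeq promoter windows of 300 bases, 250 before and 50 after a start, were matched for 9 of the 10 genes on build GRCm38.p6, as 12 windows in all. Piwil2 had none in the table. The 3 genes with the highest rise at day 12 (Fkbp6, Asz1 and Gpat2) and Mael, which holds both motifs searched, are printed from the sense strand. Capitals mark TCCCGC, an E2F6-type motif, and CACGTG, an E-box, each on either strand.
Fkbp6 promoter, chr5:135349995-135350294, minus strand: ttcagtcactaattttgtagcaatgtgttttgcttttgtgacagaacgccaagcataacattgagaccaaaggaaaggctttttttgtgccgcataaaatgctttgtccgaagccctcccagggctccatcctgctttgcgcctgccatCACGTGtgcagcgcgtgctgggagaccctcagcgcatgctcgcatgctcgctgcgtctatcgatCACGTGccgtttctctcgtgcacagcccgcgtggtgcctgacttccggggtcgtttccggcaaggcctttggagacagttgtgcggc
Asz1 promoter, chr6:18109012-18109311, minus strand: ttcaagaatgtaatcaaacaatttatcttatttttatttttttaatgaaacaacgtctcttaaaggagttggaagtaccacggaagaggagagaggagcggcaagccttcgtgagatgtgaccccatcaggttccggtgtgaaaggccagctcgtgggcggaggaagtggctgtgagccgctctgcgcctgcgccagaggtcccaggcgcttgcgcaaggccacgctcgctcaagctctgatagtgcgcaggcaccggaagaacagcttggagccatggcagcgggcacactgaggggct
Gpat2 promoter, chr2:127424949-127425248, plus strand: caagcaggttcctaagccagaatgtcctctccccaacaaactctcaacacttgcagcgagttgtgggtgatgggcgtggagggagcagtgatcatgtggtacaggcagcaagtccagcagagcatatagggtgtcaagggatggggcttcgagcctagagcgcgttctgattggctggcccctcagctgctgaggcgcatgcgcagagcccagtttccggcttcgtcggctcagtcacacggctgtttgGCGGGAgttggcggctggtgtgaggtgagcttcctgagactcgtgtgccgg
Mael promoter, chr1:166238695-166238994, minus strand: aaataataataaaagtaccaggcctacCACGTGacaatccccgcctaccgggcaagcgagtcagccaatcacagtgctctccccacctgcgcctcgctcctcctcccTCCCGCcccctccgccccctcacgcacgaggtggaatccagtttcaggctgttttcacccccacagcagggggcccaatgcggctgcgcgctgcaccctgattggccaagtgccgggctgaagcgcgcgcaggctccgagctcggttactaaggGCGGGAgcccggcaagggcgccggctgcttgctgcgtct

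CACGTG stood in a window of 5 of the 9 genes (Piwil1, Mael, Mov10l1, Fkbp6 and Pld6), while 7.15% of all 32851 promoter windows in the table hold it. TCCCGC stood in those of 2 genes (Mael and Gpat2), against 20% of all windows. A gene was counted if any of its windows held the motif, while these shares are per window. Piwil4, Fkbp6 and Pld6 had 2 windows each, and Pld6 held CACGTG in 1 of its 2. The 2 motifs did not overlap in any window shown, and the 2 Fkbp6 windows overlap and share the same E-boxes. The number of CpG dinucleotides, the bases at which promoters are methylated, ranged from 0 to 32 per window, with 21 in the Fkbp6 window, 17 in that of Asz1, 15 in that of Gpat2 and 24 in that of Mael. The median over all windows was 7, and 34.6% of all windows had 15 or more. Both motifs hold a CpG, and the windows behind their shares were not matched for the number of CpGs. A match to these letters is a description of the window, and DNA methylation was not measured in these samples.

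Levels are given as log2 of the background-subtracted signal minus log2 of the array's 75th percentile, so a level of 0 is the 75th percentile and 1 unit is a doubling. A probe was above background where the scanner software marked it as well above background. The 75th percentile of signal ran from 103 to 474 over the arrays, and between 50.6% and 68.9% of the spots were well above background. Changes are log2 differences from limma fitted to all 18 arrays, and a call means a p under 0.05 after Benjamini-Hochberg adjustment across the 18935 genes. The labels do not say whether the 2 replicates were separate cultures or animals, so the spread behind each p-value may be technical. The number of arrays limits the precision.

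On the library labelled E13.5 replicate 1, the pair of Y-linked genes measured (Ddx3y and Eif2s3y) was not above background, whereas on replicate 2 both were, at a summed linear level of 9.42. Its level of Stra8, a gene of germ cells entering meiosis, was 8.87 and that of replicate 2 was 1.55. Of 6 Sertoli cell genes measured, 4 were above background on replicate 1 and 6 on replicate 2, and Amh and Sox9 were the genes not above background on replicate 1. The labels of this library and its levels therefore stand against each other, and each E13.5 comparison is given with and without it, with the values of named genes where a call changed or a fold moved by over 1.5 times. Of the 10 genes, 9 were higher on replicate 1 than on replicate 2, by a median log2 difference of 0.95 over the 10, against 46.5% of all genes tested. The gap was 1.74 for Gtsf1, 1.47 for Fkbp6, 1.31 for Mael and 1.22 for Gpat2, and Asz1 differed by -0.02.

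The groups differed in how many of the genes they measured. All 10 were above background on both arrays of the juvenile testis and E13.5 groups. On both arrays of day 16 and of day 12, 9 were, all but Piwil1. Of the 10, 7 were above background on both arrays of Stella day 7, Dazl-GFP GFP+ ES cells and Stella-GFP GFP+ ES cells, 6 on those of Stella-GFP GFP- ES cells and 5 on those of Dazl-GFP GFP- ES cells. Over all genes tested, that share was 92.4% in juvenile testis, 86.9% at E13.5, 84.1% at day 16, 82% at day 12 and between 74.2% and 76.4% in the other 5 groups.

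**Figure D1:**
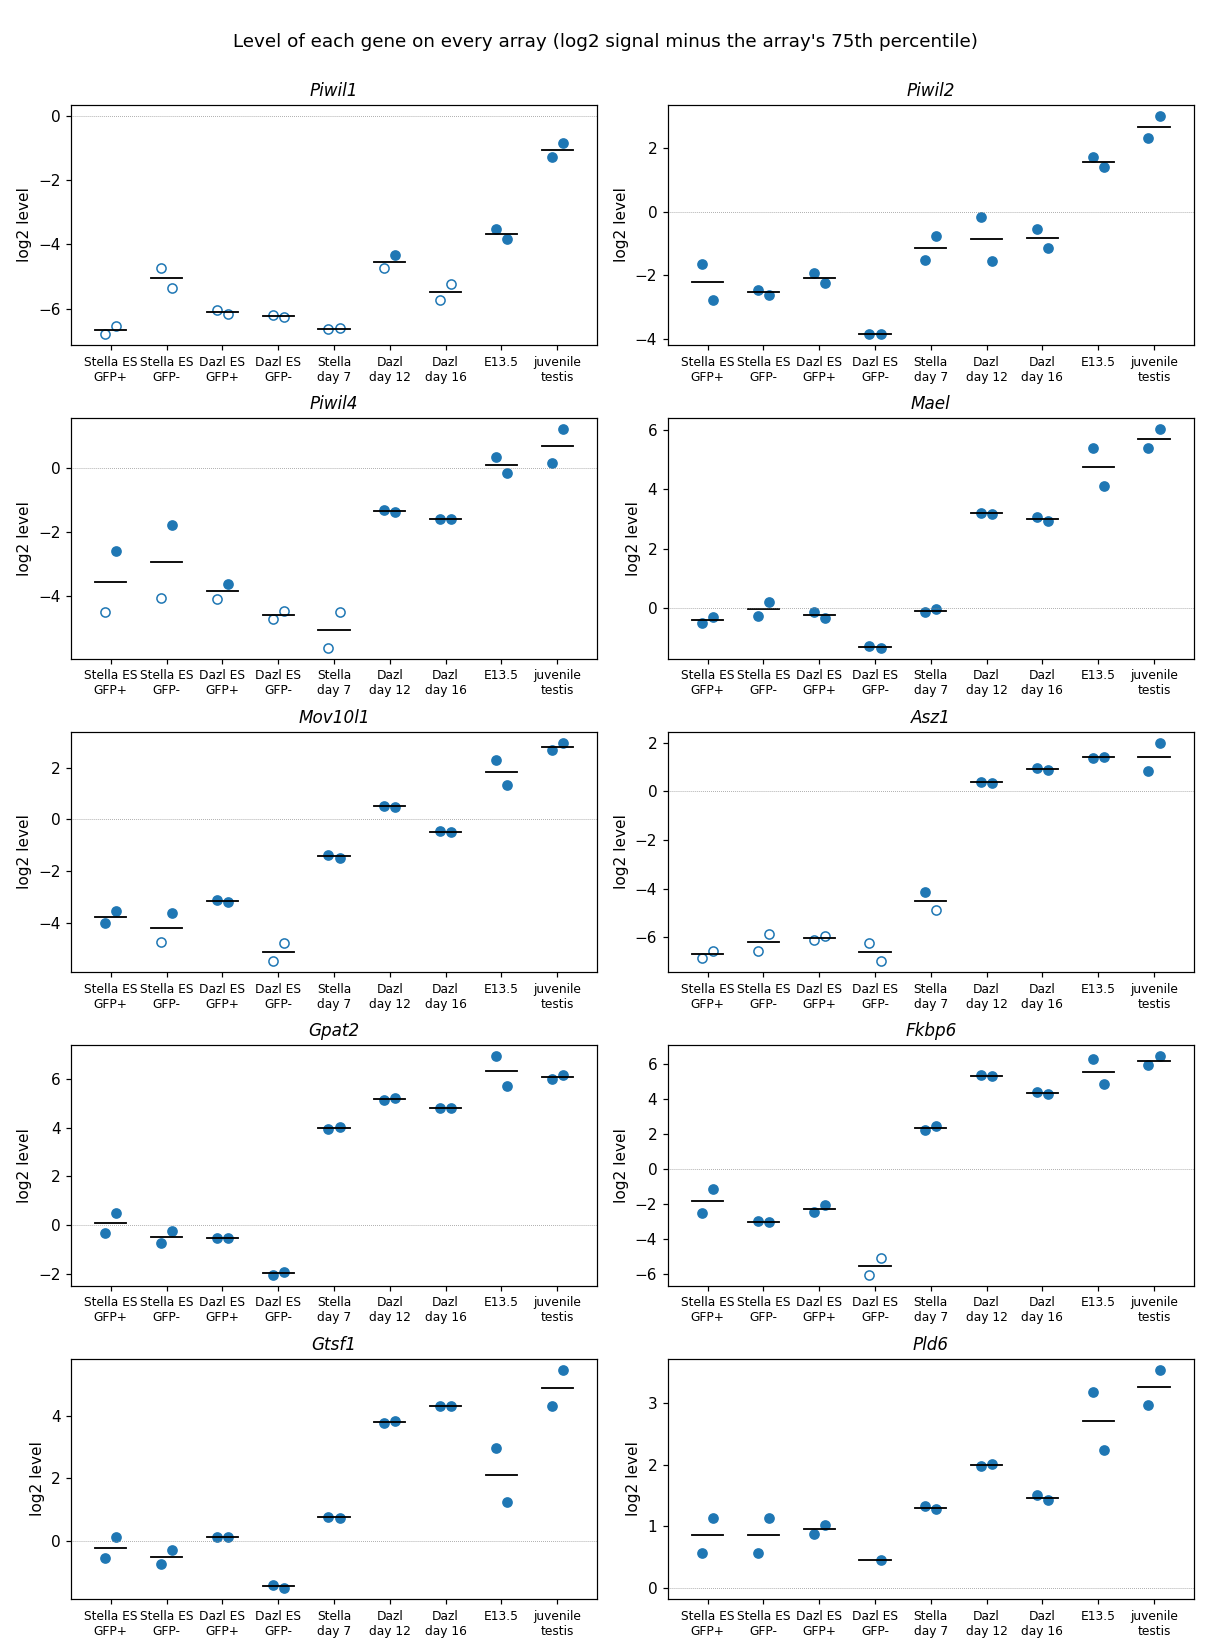
Log2 level (y axis) of the probe used for each gene on every array, by group (x axis). Points are single arrays, filled where the probe was well above background and open where it was not, with replicate 1 left of replicate 2, and lines are group means; Piwil1 is filled on 1 of the 2 day 12 arrays and on all 4 arrays of the E13.5 and juvenile testis groups.

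The 3 PIWI genes differed in when they were first measured. Piwil1 (chromosome 5, 128736071 to 128755474, GRCm38.p6) had levels of -1.27 and -0.84 in juvenile testis, -3.52 and -3.82 at E13.5, -5.74 and -5.22 at day 16 and -4.73 and -4.34 at day 12. It was above background on the arrays of the first 2 of those groups and on 1 day 12 array, and on none of the 10 ES cell and day 7 arrays, whose levels ran from -6.79 to -4.73. Its order from low to high ended with day 12, E13.5 and juvenile testis, none of which overlapped its neighbour in that order.

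Piwil2 (chromosome 14, 70372477 to 70436898), the PIWI protein that cleaves transposon transcripts in fetal and later germ cells, was above background on all 18 arrays. Its levels were 2.32 and 3.01 in juvenile testis, 1.71 and 1.41 at E13.5, -0.54 and -1.15 at day 16, -0.17 and -1.55 at day 12 and -1.54 and -0.76 at day 7. In ES cells it had -1.92 and -2.25 in Dazl-GFP GFP+ cells, -3.84 and -3.85 in Dazl-GFP GFP- cells, -1.64 and -2.77 in Stella-GFP GFP+ cells and -2.46 and -2.62 in Stella-GFP GFP- cells. The 3 differentiated groups overlapped in pairs of neighbours, and E13.5 and juvenile testis lay above all of them.

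Piwil4 (chromosome 9, 14701776 to 14740672), the nuclear PIWI protein that directs methylation of transposons in fetal male germ cells, had levels of 0.15 and 1.22 in juvenile testis, 0.36 and -0.17 at E13.5, -1.61 and -1.60 at day 16 and -1.33 and -1.39 at day 12. It was not above background on either day 7 array (-5.63 and -4.53), and it was above background on 1 of the 2 arrays in each of the Dazl-GFP GFP+, Stella-GFP GFP+ and Stella-GFP GFP- ES cell groups. Its second probe was not above background on any of the 18 arrays, so these levels rest on 1 probe.

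The closest profiles to each PIWI gene were listed. Picked as the highest among 13685 candidates, they cannot show whether the PIWI genes are unlike each other. Over the 9 group means, the 5 named genes with the highest Pearson's r to Piwil1 among 13685 candidates were Fbxo41 (0.989), Lonrf3, Mei1, C1qtnf4 and Sh3bgrl2 (0.973). For Piwil2 they were Tcam1 (0.989), Xrra1, Pex16, Tbx1 and Pygb (0.981), with Pld6 at rank 7 (0.98). For Piwil4 they were Cox8c (0.985), Srp14, Dazap2, Map1lc3a and Ccp110 (0.973), with Mael at rank 14 (0.96). The other PIWI genes stood at ranks 339 (Piwil4) and 810 (Piwil2) for Piwil1. For Piwil2 they stood at 826 (Piwil4) and 909 (Piwil1), and for Piwil4 at 259 (Piwil1) and 500 (Piwil2). Piwil1 was above background on both arrays of the E13.5 and juvenile testis groups alone, so its other means are at or near background. Over the 45 pairs of the 10 genes, r ran from 0.635 to 0.992 with a median of 0.889; these are descriptions over 9 means that share their arrays.

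The sort of Dazl-GFP ES cells compared cells with and without Dazl reporter activity before any differentiation. GFP+ cells had higher levels of Fkbp6 and Mov10l1, the 2 genes called, and no gene was called lower. Among all genes, 1.47% were called higher and 1.39% lower. Of the 10 genes, 9 had both GFP+ arrays above both GFP- arrays, and Pld6, with 1 GFP- array, was not counted. Among the 9, Piwil1 and Asz1 were above background on none of these arrays and Piwil4 on 1 GFP+ array alone. The order of their arrays is therefore not measured. Over all genes tested, 34.1% had every GFP+ array above every measured GFP- array, and the median log2 difference was 1.25 against 0.05 over all genes. The sort itself was visible in Dazl, which was 4.12 ± 0.16 higher (SE) on the log2 scale in GFP+ cells (limma adjusted p = 3.58e-07).

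Fkbp6 (chromosome 5, 135291704 to 135351809), a co-chaperone of HSP90 in PIWI loading, had levels of -2.46 and -2.07 in GFP+ cells against -6.02 and -5.06 in GFP- cells. The GFP- arrays were not above background, so it was at least 4.63-fold higher in GFP+ cells (limma adjusted p = 0.00823). The GFP+ array was the higher one on slide 1 and on slide 3 (log2 differences of 3.57 and 2.996), but with both GFP- arrays below background these differences have no measured size.

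Mov10l1 (chromosome 15, 88982891 to 89055152), the RNA helicase that passes piRNA precursors on for cutting, had levels of -3.10 and -3.18 in GFP+ cells against -5.47 and -4.77 in GFP- cells. It was above background on the GFP+ arrays alone and was at least 2.47-fold higher there (limma adjusted p = 0.0224). Its GFP+ array was likewise the higher one on both slides. Without any 1 of the 4 arrays, Mov10l1 missed the threshold, and so did Fkbp6 for 3 of the 4, all but GFP- replicate 2. Under normexp background correction, which adds an offset of 50 to every signal, neither was called (log2 differences of 0.69 for Fkbp6 and 0.56 for Mov10l1).

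Gpat2 (-0.52 and -0.54 in GFP+ cells, -2.02 and -1.92 in GFP- cells), Gtsf1 (0.12 on both GFP+ arrays, -1.41 and -1.52 on the GFP- arrays) and Mael (-0.15 and -0.35 in GFP+ cells, -1.27 and -1.34 in GFP- cells) were apart between the sorts without being called. Their log2 differences were 1.44, 1.59 and 1.05 (limma adjusted p = 0.0537, 0.134 and 0.17). With the library labelled E13.5 replicate 1 left out of the fit, which changes only the estimate of spread here, all 3 were called with Fkbp6 and Mov10l1, 5 genes in all, while 7.27% of all genes were called in either direction. Pld6 had 1 measured GFP- array, since its spot on GFP- replicate 1 carried an outlier flag and was dropped, and it had 0.87 and 1.03 in GFP+ cells against 0.45 on GFP- replicate 2. The dropped spot, if kept, would stand at 1.37, above both GFP+ arrays.

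In bulk samples, fewer cells of a type and less RNA per cell cannot be told apart. Genes of fibroblasts and feeder cells moved with this sort: the summed linear level of 8 such genes was 42.8 and 39.2 in GFP+ cells against 9.56 and 9.03 in GFP- cells, with 8 of 8 above background on both GFP+ arrays and 7 and 8 on the GFP- arrays. The summed level of 5 ES cell genes was 171.3 and 176.4 in GFP+ cells against 101.2 and 97.62 in GFP- cells. Their part in the result was not tested.

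The Stella sort asked the same of Stella reporter activity. Dppa3, which encodes Stella, was 2.63 ± 0.35 higher (SE) on the log2 scale in GFP+ cells (limma adjusted p = 0.0114). Of the 10 genes, Piwil1 was called, at -1.61 (limma adjusted p = 0.0266), with levels of -6.79 and -6.53 in GFP+ cells against -4.73 and -5.36 in GFP- cells. All 4 values were below background, so no fold is given, and with normexp background correction its direction turned to 0.40. The call was lost with slide as a block (limma adjusted p = 0.0826), without either GFP+ array and without GFP- replicate 1. Among all genes, 0.349% were called lower and 0.0898% higher. No gene of the 10 was called higher (limma; 2 of the 10 had an unadjusted p under 0.05, Piwil1 and Fkbp6, against 6.52% of all genes).

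The difference of the 2 sorts was tested directly. It was called for none of the 10 genes (limma; 4 had an unadjusted p under 0.05 against 4.68% of all genes, and 0.0264% of all genes were called higher and 0.00528% lower). All 10 differences were positive, that of Pld6 against 1 Dazl-GFP GFP- array, from 0.50 to 2.08 with a median of 1.40 against 0.02 over all genes. Piwil1 (1.72) and Asz1 (1.07) were below background on every ES cell array, so the sign of their differences is not measured. Piwil4 (1.37) and Mov10l1 (1.58) were above background on neither Dazl-GFP GFP- array. That of Fkbp6 was 2.08, with a 95% interval of 0.51 to 3.66. It rests on Dazl-GFP GFP- arrays below background and turned to -0.0062 with normexp background correction. The sorts of the 2 lines were thus not shown to differ for any of the genes.

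**Figure D2:**
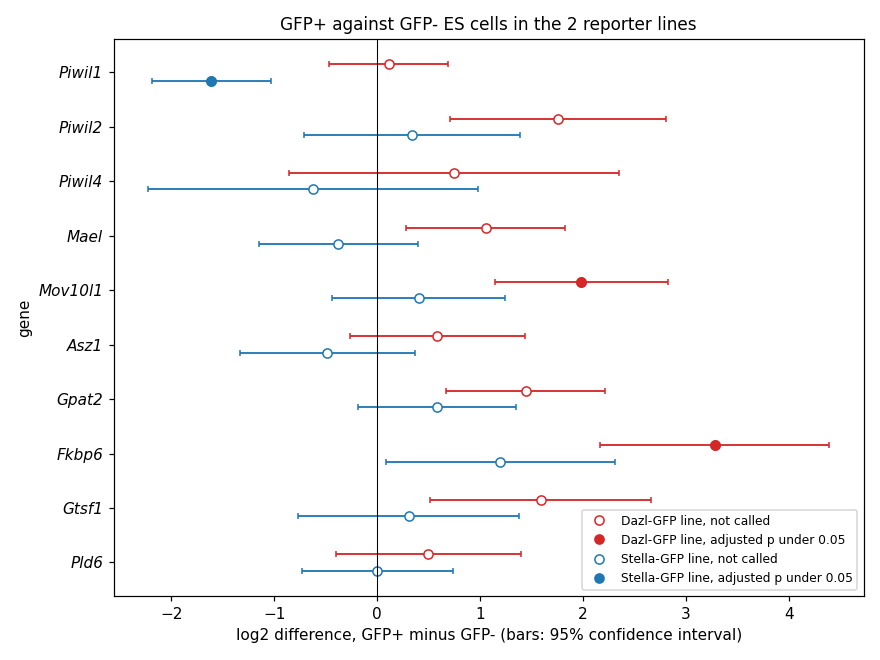
Log2 difference between GFP+ and GFP- ES cells (x axis) for each gene (y axis), in the Dazl-GFP line (red) and the Stella-GFP line (blue). Points are limma estimates over 2 arrays per group with 95% confidence intervals, filled where called. All 10 Dazl estimates lie right of 0 (that of Pld6 against 1 GFP- array), and 2 of them are filled. Those of Piwil1 and Asz1 rest on arrays below background.

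Cells sorted after differentiation were compared with GFP+ ES cells of the same line. At day 12 in the Dazl-GFP line, 9 of the 10 genes rose and none fell, while 13.1% of all genes were called higher and 14.2% lower. The median log2 difference was 3.54 over the 10 genes and -0.11 over all genes. Every gene had both day 12 arrays above both ES cell arrays, as 34.9% of all genes did. Piwil1, Piwil4 and Asz1 were above background on both arrays of no ES cell group. They passed the filter on dim probes only through groups where they were high. Piwil2 was the gene not called, at 1.23 ± 0.48 (SE, limma adjusted p = 0.0805). Other cell type genes moved with this comparison: the summed linear level of the 8 fibroblast and feeder genes was 2.58 and 2.70 at day 12 against 42.8 and 39.2 in ES cells, with 6 of 8 above background on both day 12 arrays and 8 on both ES cell arrays. Prrx1 and Lum were the feeder genes not above background at day 12. The 5 ES cell genes summed to 96.8 and 91.2 at day 12 against 171.3 and 176.4 in ES cells. The part of either list in the result was not tested.

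Fkbp6, Asz1 and Gpat2 had the highest rises of the 10 at day 12. Fkbp6 had levels of 5.36 and 5.32 at day 12 against -2.46 and -2.07 in ES cells, a 194-fold difference (log2 difference 7.60 ± 0.51 SE, limma adjusted p = 2.49e-06). Asz1 (chromosome 6, 18050964 to 18109061), a scaffold protein anchored in the mitochondrial outer membrane, had 0.40 and 0.35 at day 12 against -6.11 and -5.95 in ES cells. It was below background on all 8 ES cell arrays and was at least 20.6-fold higher at day 12 (limma adjusted p = 1.45e-06).

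Gpat2 (chromosome 2, 127425154 to 127436093), a mitochondrial acyltransferase-like protein that germ cells need to make piRNAs, had 5.15 and 5.20 at day 12 against -0.52 and -0.54 in ES cells, a 52-fold difference (5.70 ± 0.35 SE, limma adjusted p = 1.66e-06). The day 12 and ES cell arrays of these 3 genes were far apart and their replicates close. Pld6 (chromosome 11, 59783893 to 59787657), the mitochondrial nuclease of precursor cutting, differed least among the called genes, with 1.98 and 2.01 at day 12 against 0.87 and 1.03 in ES cells (2.06-fold, limma adjusted p = 0.0396).

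Gtsf1 (chromosome 15, 103402458 to 103430445), a zinc finger cofactor of PIWI proteins, had 3.78 and 3.83 at day 12 against 0.12 on both ES cell arrays, a 12.8-fold difference (limma adjusted p = 0.000326). Mov10l1 had 0.53 and 0.48 against -3.10 and -3.18, a 12.5-fold difference at day 12 (limma adjusted p = 6.56e-05). Mael (chromosome 1, 166201385 to 166238744), a nuage protein of transposon silencing, had 3.22 and 3.17 against -0.15 and -0.35, a 10.9-fold difference at day 12 (limma adjusted p = 5.54e-05). The second probes of Fkbp6, Mov10l1 and Gtsf1 gave log2 differences of 6.37, 2.56 and 4.21.

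Among the PIWI genes, Piwil4 rose at day 12, 5.66-fold over the ES cell arrays of which 1 was above background (limma adjusted p = 0.0263). Piwil1 was called at 1.57 (limma adjusted p = 0.00141) with 1 of 2 day 12 arrays above background and none of the ES cell arrays, and with normexp background correction its difference turned to -0.52. Piwil4 and Pld6 each missed the threshold without any 1 of the 4 arrays, with slide as a block, and with normexp background correction, where their log2 differences were 0.19 and 0.95. With that correction the log2 differences of Fkbp6 (5.61), Gpat2 (4.81), Asz1 (1.43) and Mov10l1 (1.42) were over 1.5 times smaller as folds and were still called. On slide 3, which held 1 array of each group, the differences of the 10 genes ran from 0.70 for Piwil2 to 7.39 for Fkbp6, all positive.

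Day 7 of the Stella-GFP line was set against its GFP+ ES cells. Fkbp6, Gpat2, Mov10l1 and Asz1 rose, 4 of the 10 genes, and none fell, while 7.61% of all genes were called higher and 13% lower. Fkbp6 had levels of 2.24 and 2.45 at day 7 against -2.51 and -1.11 in ES cells, a 17.8-fold difference (limma adjusted p = 0.000388). Gpat2 had 3.94 and 4.00 against -0.32 and 0.49, 14.8-fold higher at day 7 (limma adjusted p = 8.32e-05). In both genes all day 7 arrays lay above all ES cell arrays, as in 26.6% of all genes. With normexp background correction the log2 difference of Fkbp6 was 2.68, against 4.15 without it, and it was still called; without GFP+ ES replicate 1 or 2 it was 3.46 or 4.85.

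Mov10l1 had -1.37 and -1.49 at day 7 against -4.02 and -3.52 in ES cells, a 5.05-fold difference (limma adjusted p = 0.00197). Asz1 had -4.14 and -4.87 against -6.84 and -6.56 and was above background on 1 day 7 array, at least 1.09-fold higher (limma adjusted p = 0.00287), and with normexp background correction its log2 difference turned to -0.64 and that of Mov10l1, at 0.23, was not called. Mael stayed uncalled at 0.32, with a 95% interval of -0.45 to 1.09, and so did Piwil2, Piwil4, Piwil1, Gtsf1 and Pld6. The day 7 arrays filled slides of their own, scanned on another day under another extraction protocol, so slide and day cannot be told apart from group here. The 8 fibroblast and feeder genes summed to 4.39 and 4.25 at day 7, with 5 of 8 above background on both arrays, against 19.2 and 6.52 in ES cells with 8 and 7. The 5 ES cell genes summed to 216 and 206 against 340 and 302, and the part of either list was not tested.

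From day 12 to day 16, none of the 10 genes was called (limma; 2 had an unadjusted p under 0.05, Piwil1 and Mov10l1, against 7.73% of all genes, and 0.607% of all genes were called higher and 0.396% lower). Mov10l1 had -0.47 on both day 16 arrays against 0.53 and 0.48 at day 12, a log2 difference of -0.97 with a 95% interval of -1.82 to -0.13 (limma adjusted p = 0.511). The differences ran from -0.99 for Fkbp6 to 0.54 for Asz1. Both groups shared slides 2 and 3. With normexp background correction 4 of the 10 genes were called, 1 higher and 3 lower, while 31.6% of all genes were called higher and 9.4% lower.

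**Figure D3:**
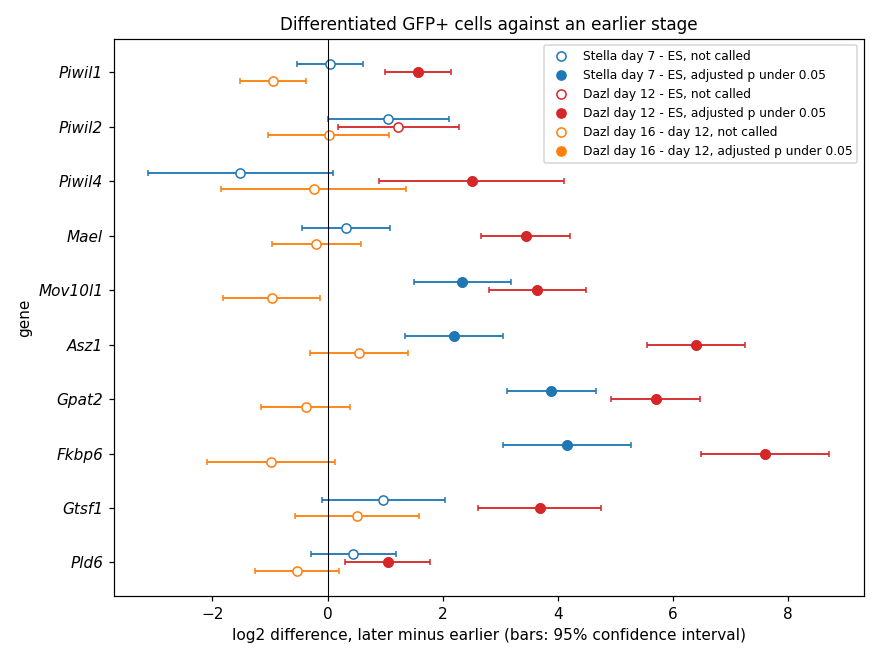
Log2 difference (x axis) for each gene (y axis) between Stella-GFP day 7 and GFP+ ES cells (blue), Dazl-GFP day 12 and GFP+ ES cells (red), and Dazl-GFP day 16 and day 12 (orange). Points are limma estimates over 2 arrays per group with 95% confidence intervals, filled where called; 9 of the 10 red points, 4 of the 10 blue points and none of the orange points are filled.

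E13.5 germ cells were set against day 16 Dazl-GFP cells, the last stage in culture. Piwil2, Mov10l1, Piwil1, Mael, Gpat2 and Pld6 were higher at E13.5, 6 of the 10 genes, and Gtsf1 was lower, while 24.1% of all genes were called higher and 18.3% lower. The median log2 difference was 1.61 over the 10 genes and 0.19 over all genes. Without the library labelled E13.5 replicate 1, Pld6 was no longer called and the other 5 higher genes and Gtsf1 remained called, with 43.1% of all genes called in either direction and a median of 1.004 over the 10. Pld6 also missed the threshold without either day 16 array (limma adjusted p = 0.0504 and 0.0622).

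Piwil2 was 5.28-fold higher at E13.5 (log2 difference 2.40 ± 0.48 SE, limma adjusted p = 0.00207), from the levels given above, and 2.25 without that library. Piwil1 was at least 2.4-fold higher (limma adjusted p = 0.000263), with both E13.5 arrays above background and neither day 16 array. It passed the filter on dim probes only through the E13.5 and juvenile testis groups. Its log2 difference of 1.81 turned to -1.37 with normexp background correction, where it was called lower. Its signals (30 and 25.4 at E13.5, 2.92 and 4.39 at day 16) were smaller than the offset of 50 that this correction adds. The part of that offset was not tested. Piwil4, at 1.70 with a 95% interval of 0.09 to 3.30, was not called (limma adjusted p = 0.0833). The E13.5 arrays of all 3 PIWI genes lay above those of day 16, as they did for 40.1% of all genes. Of the 3, 2 were called.

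Mov10l1 had 2.29 and 1.32 at E13.5 against -0.47 on both day 16 arrays (2.28 ± 0.38 SE, limma adjusted p = 0.000707; 1.79 without replicate 1). Mael had 5.41 and 4.11 against 3.06 and 2.94 (1.76, limma adjusted p = 0.00209; 1.11 without replicate 1). Gpat2 had 6.92 and 5.70 against 4.79 on both day 16 arrays (1.51, limma adjusted p = 0.00502; 0.90 without replicate 1). In each the first E13.5 array was the highest of the 4. Without replicate 2, Mael was 2.41 and Gpat2 2.13. With normexp background correction Piwil2 (1.72), Mael (2.52) and Gpat2 (2.32) were still called higher, and Gtsf1 (-1.32) lower.

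Gtsf1 went the other way. It had 2.97 and 1.23 at E13.5 against 4.31 on both day 16 arrays, 0.216 times the day 16 level (log2 difference -2.21 ± 0.49 SE, limma adjusted p = 0.00383). Without E13.5 replicate 1 the difference was -3.08 (limma adjusted p = 0.000244), without replicate 2 it was -1.34 (limma adjusted p = 0.0226), and its second probe gave -2.23. Asz1 and Fkbp6 were not called: Asz1 had 1.38 and 1.40 at E13.5 against 0.95 and 0.89 at day 16, and Fkbp6 had 6.31 and 4.84 against 4.41 and 4.30. The 95% intervals of their log2 differences were -0.37 to 1.32 and 0.11 to 2.34. Without E13.5 replicate 1 the difference of Fkbp6 was 0.49, against 1.23 with it. The 8 fibroblast and feeder genes summed to 1.54 and 1.75 at E13.5 against 3.20 and 3.17 at day 16, the 5 ES cell genes to 22.7 and 54.6 against 108.3 and 106.6, and the 6 Sertoli cell genes to 0.565 and 5.21 against 0.773 and 0.804. Their part in the result was not tested. E13.5 and juvenile testis shared a slide and a scan day that held no cultured cells, so slide and day cannot be told apart from group in comparisons with culture.

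Set against undifferentiated Dazl-GFP GFP+ ES cells, all 10 genes were higher at E13.5, while 23.4% of all genes were called higher and 21.4% lower; the E13.5 arrays are the same as above and the ES cell arrays the same as for day 12. The count of 10 holds Piwil1, Piwil4 and Asz1, which were above background on both arrays of no ES cell group. They passed the filter on dim probes only through groups where they were high. The log2 differences ran from 1.76 for Pld6 to 7.84 for Fkbp6 with a median of 4.45, against 0.05 over all genes. Fkbp6 was 229-fold, Gpat2 114-fold, Mael 32.2-fold and Mov10l1 30.8-fold higher, and Asz1 was at least 41.8-fold higher (limma adjusted p between 1.23e-07 for Gpat2 and 2.32e-06 for Mov10l1 in these 5). Piwil2 was 12.5-fold higher (limma adjusted p = 0.000103) and Piwil4 15.5-fold (limma adjusted p = 0.0011), while Piwil1 was at least 1.25-fold higher and turned to a log2 difference of -0.94, called lower, with normexp background correction. Without E13.5 replicate 1, Gtsf1 (1.11, limma adjusted p = 0.052) was no longer called and the other 9 were, with 42.6% of all genes called in either direction. Fkbp6 was then 138-fold, Gpat2 74.7-fold and Mael 20.5-fold higher, and without replicate 2 their log2 differences were 8.58, 7.45 and 5.66 and that of Gtsf1 was 2.85. With normexp background correction Fkbp6 (6.09), Gpat2 (6.16), Mov10l1 (2.70), Asz1 (2.42), Piwil2 (2.27) and Piwil4 (1.06) had smaller log2 differences and were still called. The fibroblast and feeder genes, at the E13.5 sums just given, stood against 42.8 and 39.2 in ES cells, and the ES cell genes against 171.3 and 176.4, and their part was not tested.

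Juvenile testis germ cells were set against E13.5. Piwil1 and Gtsf1 rose, 2 of the 10 genes, and none fell, while 16% of all genes were called higher and 18.9% lower. Piwil1, with the levels given above, was 6.11-fold higher in juvenile testis (2.61 ± 0.26 SE, limma adjusted p = 2.68e-05). It passed the filter on dim probes only through these 2 groups. Gtsf1 had 4.30 and 5.47 in juvenile testis against 2.97 and 1.23 at E13.5, a 6.89-fold difference (limma adjusted p = 0.00116), and 12.6-fold without E13.5 replicate 1. Without E13.5 replicate 2, juvenile testis replicate 1 or juvenile testis replicate 2, its log2 difference was 1.91, 3.37 or 2.20, against 2.78 with all 4 arrays. With normexp background correction the log2 difference of Piwil1 was 1.19 and still called. Both groups lay on 1 slide. In both genes the juvenile testis arrays lay above the E13.5 arrays, as in 24.9% of all genes. The 8 fibroblast and feeder genes summed to 6.96 and 8.17 in juvenile testis, with 8 of 8 above background, against 1.54 and 1.75 at E13.5 with 7 and 6. The 6 Sertoli cell genes summed to 13.45 and 5.66 in juvenile testis against 0.565 and 5.21 at E13.5, and the part of either list in the result was not tested.

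The count turned on 1 library. Without E13.5 replicate 1, 5 of the 10 genes were called higher in juvenile testis, with Mael (1.60, limma adjusted p = 0.000905), Mov10l1 (1.48, limma adjusted p = 0.0149) and Pld6 (1.02, limma adjusted p = 0.0293) added, and 40.4% of all genes were called in either direction. The difference of Gpat2, -0.24 with both arrays, was 0.37 without that library, and that of Fkbp6, 0.62 with both, was 1.36; neither was called in either fit. Asz1 had 0.85 and 1.99 in juvenile testis against 1.38 and 1.40 at E13.5 and did not differ beyond its spread (95% interval of -0.82 to 0.88).

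A further 22 genes of the pathway were counted beside the 10, and 18 of them were tested; Mybl1 was on the array and did not pass the filter on dim probes, and Pnldc1, Spocd1 and Btbd18 were not used here. They moved in both directions. Of the 18, 5 were called higher and 5 lower at day 12 against GFP+ ES cells, beside 13.1% and 14.2% of all genes, and their median log2 difference was -0.04. Tdrd9, a helicase that partners Piwil4, was at least 5.97-fold higher at day 12 (limma adjusted p = 0.000107), and the scaffold protein Tdrkh was 1.77 higher on the log2 scale (limma adjusted p = 9.11e-05). Dnmt3l, the cofactor of DNA methyltransferases, was lower at day 12 by -2.49 (limma adjusted p = 0.00102), as were Tdrd12, Prmt5, Wdr77 and Hsp90aa1.

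At E13.5 against day 16, 8 of the 18 were called higher and 2 lower, beside 24.1% and 18.3% of all genes. Tdrd1, the Tudor protein that binds Piwil2, was 5.83 ± 0.27 higher (SE) on the log2 scale, Tdrd5 4.41 ± 0.41 and Ddx4, the germ cell helicase Vasa, 3.61 ± 0.23, with limma adjusted p of 1.36e-07, 1.27e-05 and 1e-06. Tdrkh was 2.93 higher (limma adjusted p = 1.23e-06). Dnmt3l was -7.63 and Morc1, a silencing factor of male germ cells, -2.93 (limma adjusted p = 2.52e-07 and 0.000129). Without E13.5 replicate 1 the differences of these genes kept their direction, with Tdrd5 at 5.07, Tdrkh at 2.80 and Dnmt3l at -6.77. Other pathway genes moved more: Henmt1 went from 1.72 to 0.62 and Tdrd9 from 1.21 to 0.16. Nanos2 went from 4.17 to 7.18, Prmt5 from 0.52 to 1.15 and Wdr77 from 0.54 to 1.03. Tex15 turned from 0.68 to -0.45 and Rnf17 from 0.19 to -0.02. At day 7, 3 were higher and 2 lower, beside 7.61% and 13% of all genes. In juvenile testis against E13.5, 6 were higher and 1 lower, beside 16% and 18.9% of all genes; without E13.5 replicate 1, 6 were higher and 4 lower, with Tdrd5, Nanos2 and Prmt5 added to the lower ones, Tdrd6 added to the higher ones and Dnmt3l no longer called. In the Dazl sort Tdrd12 was called higher, and in the Stella sort, the difference of the sorts and day 16 against day 12 none was called (limma; 1, 1 and 5 had an unadjusted p under 0.05).

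**Figure D4:**
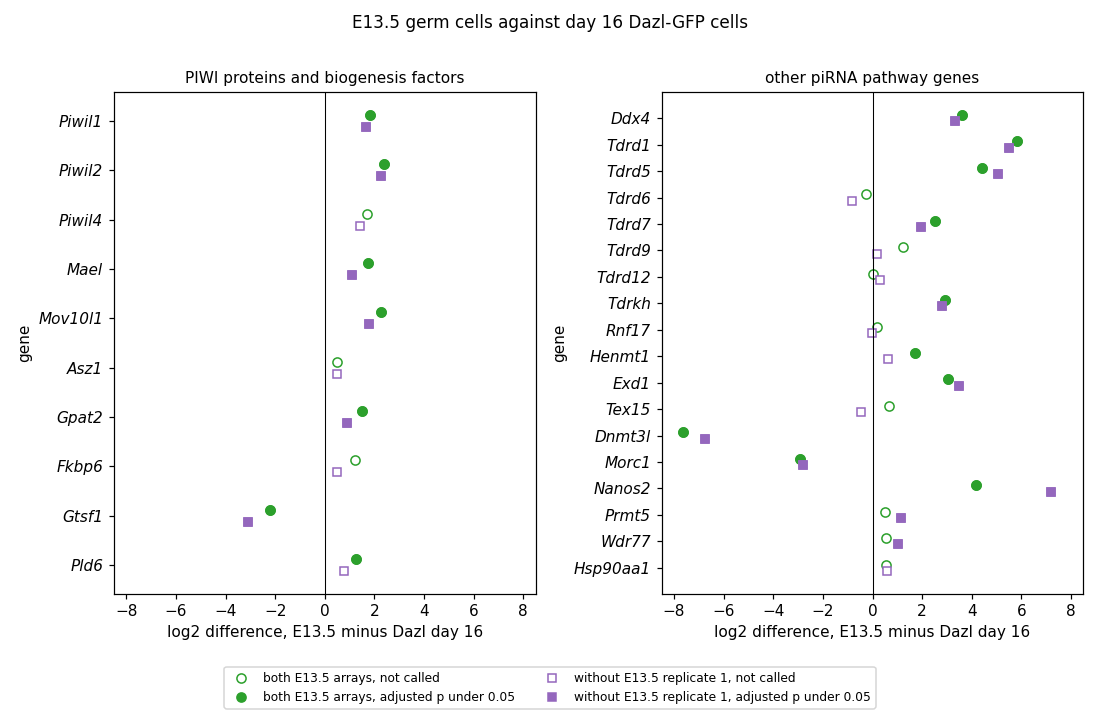
Log2 difference between E13.5 germ cells and day 16 Dazl-GFP cells (x axis) for the 10 genes (left) and the 18 other pathway genes (right, y axis), with both E13.5 arrays (green circles) and without E13.5 replicate 1 (purple squares). Filled symbols are called by limma; Gtsf1 at -2.21 stands left of 0 among the 10, and Dnmt3l at -7.63 and Morc1 at -2.93 do among the others.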

How the data were processed

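RNA of 18 mouse samples was labelled in 1 colour. Feature Extraction 9.1.3.1 turned the scans into spot intensity under 2 of its protocols, per the file headers, and the deposited intensity is background-subtracted, given to 3 digits and not scaled between arrays. The authors' flag for spots well above background is a yes or no mark, per the file headers. A deposited table of group means was not used.

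Of 43379 spots that are not controls, 187 with outlier flags were set missing on their array; none was saturated. Spots of a probe were averaged, and log2 signal minus the log2 75th percentile was taken. Of 41174 probes, 22951 were named by accession, 6659 by symbol and 3096 by synonym through RefSeq (GRCm38.p6), and 8468 kept the name in the files. Probes well above background on both arrays of at least 1 group were tested (28251), with the brightest standing for its gene. limma 3.58.1 in R 4.3.3 fitted the 9 groups with 9 residual degrees of freedom; tests were two-sided. Where no array of the lower group was above background, "at least N-fold" sets the higher group's mean against a floor averaged over the lower group's arrays. On each array the floor is the higher of the probe's own level and the lowest level above background of any probe. It is not the detection limit of the gene's own probe, so such a fold is not a strict lower bound. On data simulated for the Dazl sort over all genes, limma called 11 of 100 genes moved by 1 log2 unit, 71 of 100 moved by 2 and 6 of 18735 left in place. The simulation gave each gene the same spread in all 9 groups and no slide effect. On the real arrays the correlation of the 2 replicates was 0.944 at E13.5 and 0.994 at day 7. These counts therefore do not measure the power or the false calls on the real arrays.

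The members and lists were chosen with earlier results of these data known. All 10 members are named, with up to 4 called pathway genes per direction and comparison with the smallest p (others are named where a count is listed), the reporter genes, and the 5 nearest profiles per PIWI gene. Figures were drawn with Python and matplotlib. Alternatives were quantile normalization, normexp background correction (offset 50), no dim filter, the mean of a gene's probes, slide or replicate number as a block, and leaving out single arrays.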

Additional observations from a re-analysis of the deposited data

How the results depend on the processing

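The 35 called differences of the 10 genes were recomputed 366 times under the alternatives, and 331 kept their direction and call, 30 lost the call and 5 turned. With normexp background correction, 0 genes of the 10 were called in either sort (Stella 0, Dazl 0), 2 at day 7 and 4 at day 16 against day 12. The counts over all genes for these are given below. In juvenile testis against E13.5, 5 were called. No share over all genes is given here for that comparison, so the count says nothing particular about the 10 genes. With that correction the log2 difference of Piwil1 turned to 0.40 in the Stella sort, -0.52 at day 12 against ES cells, 0.95 at day 16 against day 12 (called), -1.37 at E13.5 against day 16 (called) and -0.94 at E13.5 against ES cells (called). Those of Asz1 at day 7 (-0.64) and of Fkbp6 in the difference of the sorts (-0.0062) turned too, and the cause was not tested. Over all genes, it called 9 in the Stella sort, 76 in the Dazl sort, 0 in the difference of the sorts, 843 at day 7, 1551 at day 12, 7764 at day 16 against day 12 and 13830 at E13.5 against day 16, and it moved the median log2 difference of all genes to between -0.54 and 0.25, against between -0.15 and 0.19 as reported. In the difference of the sorts that median was -0.0055, so Fkbp6 at -0.0062 had no clear direction there. The part of these shifts in the turned differences was not tested.

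Without the filter on dim probes, 55 genes were called in the Stella sort and 13981 at E13.5 against ES cells, where more genes were tested. Quantile normalization called 18 genes in the difference of the sorts. With slide as a block, 0 of the 10 genes were called in the Stella sort, and over all genes 19 in the Stella sort, 183 in the Dazl sort, 1 in the difference of the sorts and 2892 at day 12. At day 12, slide as a block left 7 of the 10 called, and normexp left 6. With 1 array left out at a time, which leaves an arm with 1 array assumed to vary like the other groups, the 10 genes gave 0 to 1 calls in the Stella sort, 0 to 5 in the Dazl sort and 2 to 5 in juvenile testis against E13.5. Over all genes the calls ran from 23 to 258, 39 to 1376, 1 to 76, 1441 to 5711, 2557 to 6947, 60 to 376 and 5360 to 8453 in the Stella sort, the Dazl sort, the difference of the sorts, day 7, day 12, day 16 against day 12 and E13.5 against day 16. The first 6 of those highest counts came without E13.5 replicate 1, and the last without E13.5 replicate 2. The Dazl sort of Pld6 had no value without GFP- replicate 2.

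The labels tie a replicate number to no shared culture, animal or day, but within each sort and between days 12 and 16 it coincides with slide. With the replicate block 1, 2, 0, 4, 9, 0, 8, 10 and 2 of the 10 genes were called in the Stella sort, Dazl sort, difference of the sorts, day 7, day 12, day 16 against day 12, E13.5 against day 16, E13.5 against ES cells and juvenile testis against E13.5, with Piwil4 added at E13.5 against day 16 (1.70, limma adjusted p = 0.042). Over all genes, in the same order, 77, 530, 6, 4020, 5168, 177, 8132, 8583 and 6690 were called. The deviations of same-numbered arrays correlated across genes between -0.03 and 0.56. Signal over background limits Piwil1, Piwil4 and Asz1 in ES cells, where Piwil4 was above background on some arrays and the others on none. It also limits Fkbp6 and Mov10l1, the genes called in the Dazl sort, which were not above background on either Dazl-GFP GFP- array. Mov10l1 was above background on 1 of the 2 Stella-GFP GFP- arrays.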
